A study of Homo sapiens with 6 samples.

Results

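The transcripts described here are 10 genes known from white blood cells, LYZ, S100A8, S100A9, PTPRC, LCP1, LYST, TLR6, TLR8, CSF2RB and FLI1, as they were sequenced in RNA immunoprecipitation (RIP) libraries of HepG2, a human hepatocellular carcinoma cell line. They were taken by gene name from 58302 genes listed in both deposited tables, because they are not expected in liver-derived cells. They were also selected on their measured values, most of them being highest in the IgG controls, so their values against IgG are given here as a description. The study held 6 libraries: PABPC4 antibody on HepG2 overexpressing PABPC4 (2 libraries), PABPC1 antibody on HepG2 overexpressing PABPC1 (2 libraries), and rabbit IgG with 1 library from each of these overexpressing populations. No library came from cells without an overexpressed PABPC. The labels do not say whether replicates were separate cultures, so the spread between the libraries of a RIP may be technical. The spread between the IgG libraries also holds any difference between the populations. Cell lysate was incubated with antibody held on protein A/G magnetic beads, and the bound RNA was made into libraries with a SMART-seq type kit and random primers. The reads recovered below carry no replicate numbers and do not show from which of the overexpressing populations an IgG library came, so the libraries of each antibody are called A and B.

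Cytoplasmic poly(A)-binding proteins coat the poly(A) tail of messenger RNA and take part in its translation and turnover, and PABPC1 and PABPC4 are close relatives. In such an assay, RNA that sticks to beads or antibody without the target protein is read from the IgG control. White blood cells carry a set of transcripts that liver parenchymal cells hardly use. Among them are granule and cytosolic defence proteins of neutrophils and monocytes, the surface phosphatase CD45, receptors for microbial products and growth factors, and the transcription factors of the blood lineage.

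The defence proteins come first. LYZ encodes lysozyme, which cleaves bacterial cell walls and is made by monocytes, granulocytes and secretory epithelia (chr12:69348381-69354234, counted over 1764 nucleotides of exon). S100A8 (chr1:153390032-153422583, 1006 nucleotides) and S100A9 (chr1:153357854-153361023, 577 nucleotides) encode the calcium-binding chains of calprotectin, which is abundant in the cytosol of neutrophils. PTPRC (chr1:198638713-198757476, 8371 nucleotides) encodes CD45, the receptor tyrosine phosphatase found on nucleated blood cells. LCP1 (chr13:46125923-46182177, 5061 nucleotides) encodes L-plastin, the actin-bundling plastin of white blood cells, and LYST (chr1:235661031-235883713, 19614 nucleotides) encodes the lysosomal trafficking regulator that is mutated in Chediak-Higashi syndrome. The receptors are TLR6 (chr4:38822897-38868390, 6035 nucleotides), which pairs with TLR2 to sense bacterial lipopeptides, TLR8 (chrX:12906620-12923169, 4353 nucleotides), which senses single-stranded RNA in endosomes, and CSF2RB (chr22:36913628-36940439, 5000 nucleotides), the beta chain shared by the GM-CSF, IL-3 and IL-5 receptors. FLI1 (chr11:128685132-128813267, 8172 nucleotides) encodes an ETS transcription factor of blood and endothelial cells. Gene positions are those of RefSeq on GRCh38.p14, and the counted lengths are those implied by the deposited folds.

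Promoter sequence was available in the RefSeq table of GRCh38.p14 for 7 of the 10 genes (S100A8, S100A9, PTPRC, LCP1, LYST, TLR6 and TLR8), as 250 bases before to 50 bases after a transcript start, with several windows for S100A8 and LYST. The hexamer AGGAAG, or CTTCCT on the other strand, was present in at least 1 window of each of these 7 genes. The same hexamer stood in 38.1% of 27305 genes with a promoter window. It contains the letters GGAA that ETS factors such as FLI1 recognise, which stood in 96.3% of all genes. Of 6 motifs searched, chosen with the sequences in view, the longer GAGGAAG or its reverse complement CTTCCTC was found in 4 of 7 against 16.1% of genes. GAGGAAGT or its reverse complement ACTTCCTC, which overlaps it, was found in 1 of 7 against 3.15%. TATAAA or TTTATA was found in 3 of 7 against 14%, and TTGCNNAA or TTNNGCAA in 2 of 7 against 12.7%. A match is a run of letters and was not tested as a binding site. The windows of PTPRC (chr1:198638790-198639089, plus strand), S100A9 (chr1:153357604-153357903, plus strand) and LCP1 (chr13:46182128-46182427, minus strand) are shown because these 3 had the most reads over all libraries of the 9 transcripts without LYZ. The PTPRC window belongs to a transcript start inside the gene span given above. The windows are written 5′ to 3′ with each AGGAAG or CTTCCT in capitals, which marks 3 matches for PTPRC, 2 for S100A9 and 2 for LCP1.
PTPRC: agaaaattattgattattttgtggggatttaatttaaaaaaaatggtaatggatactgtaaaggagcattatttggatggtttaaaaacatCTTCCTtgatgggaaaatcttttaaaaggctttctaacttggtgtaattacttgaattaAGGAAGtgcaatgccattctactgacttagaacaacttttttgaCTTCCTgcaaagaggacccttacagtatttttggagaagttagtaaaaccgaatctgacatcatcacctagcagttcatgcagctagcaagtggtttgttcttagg
S100A9: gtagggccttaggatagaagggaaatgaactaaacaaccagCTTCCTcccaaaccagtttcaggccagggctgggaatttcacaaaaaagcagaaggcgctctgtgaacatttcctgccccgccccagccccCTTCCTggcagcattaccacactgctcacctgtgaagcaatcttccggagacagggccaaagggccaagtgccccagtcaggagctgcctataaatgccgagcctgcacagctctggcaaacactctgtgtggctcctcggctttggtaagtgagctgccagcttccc
LCP1: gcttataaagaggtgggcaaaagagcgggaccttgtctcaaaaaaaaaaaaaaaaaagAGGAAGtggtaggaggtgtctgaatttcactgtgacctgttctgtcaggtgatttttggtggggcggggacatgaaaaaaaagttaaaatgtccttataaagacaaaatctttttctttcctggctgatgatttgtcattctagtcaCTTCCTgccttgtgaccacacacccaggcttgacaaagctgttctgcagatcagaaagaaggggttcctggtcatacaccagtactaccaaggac

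Whole reads per library were recovered from the folds and p-values of the deposited tables. The totals were 850190 and 841327 reads in the PABPC4 libraries, 289217 and 277552 in the PABPC1 libraries, and 133030 and 94235 in the IgG libraries. The libraries thus stood apart in depth, with the PABPC4 pair at 7.44 times and the PABPC1 pair at 2.49 times the summed IgG total. In CPM, reads scaled to the library total, 1 read was worth 1.18 and 1.19 in the PABPC4 libraries, 3.46 and 3.60 in the PABPC1 libraries, and 7.52 and 10.6 in the IgG libraries. Nuclear genes took 77.3% to 78.6% of PABPC4 reads, 53.1% to 58.7% of PABPC1 reads and 38.5% to 40.5% of IgG reads. The rest holds mitochondrial genes and any reads that were not recovered per library. Liver identity was plain in every library by the summed reads of 20 hepatocyte markers. They summed to 11078 CPM in the PABPC4 RIP, 8263 in the PABPC1 RIP and 5139 in IgG, where the libraries held 689 and 479 of these reads. All 20 had a read in at least 1 library, and 17 had at least 4 summed IgG reads. In bulk libraries such as these, fewer cells of a type and less RNA per cell cannot be told apart.

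All 10 transcripts were detected, at low counts. Together they held 331 reads in the PABPC4 libraries, 192 in the PABPC1 libraries and 159 in the IgG libraries, or 0.0196%, 0.0339% and 0.0700% of all reads (exact 95% intervals 0.0175% to 0.0218%, 0.0293% to 0.0390% and 0.0595% to 0.0817%). Such intervals cover counting error only, since amplified reads without molecular identifiers are not independent molecules. LYZ made up most of the PABPC4 reads and the other 9 made up most of the IgG reads, and both kinds of transcript are described in turn.

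The summed reads of the 9 transcripts without LYZ did not grow with the depth of the library. Their summed reads were 45 and 47 in the PABPC4 libraries, 55 and 46 in the PABPC1 libraries, and 60 and 67 in the IgG libraries. The lowest and the highest library thus lay within 45 and 67 reads, while the totals ran between 94235 and 850190. Scaled to depth, this became 52.9 and 55.9 CPM in PABPC4, 190 and 166 in PABPC1, and 451 and 711 in IgG, with no overlap between the antibodies. Over the groups, the sums were 92 reads in PABPC4 (exact 95% Poisson interval 74.2 to 112.8), 101 in PABPC1 (82.3 to 122.7) and 127 in IgG (105.9 to 151.1). The ratio of summed CPM was 0.0973 for PABPC4 over IgG (exact 95% interval 0.0736 to 0.128) and 0.319 for PABPC1 over IgG (0.243 to 0.417). Equal summed reads would give a ratio of 0.134 for PABPC4 over IgG and of 0.401 for PABPC1 over IgG. Because most of the genes were chosen for being highest in IgG, these ratios are a description and were not tested.

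**Figure D1:**
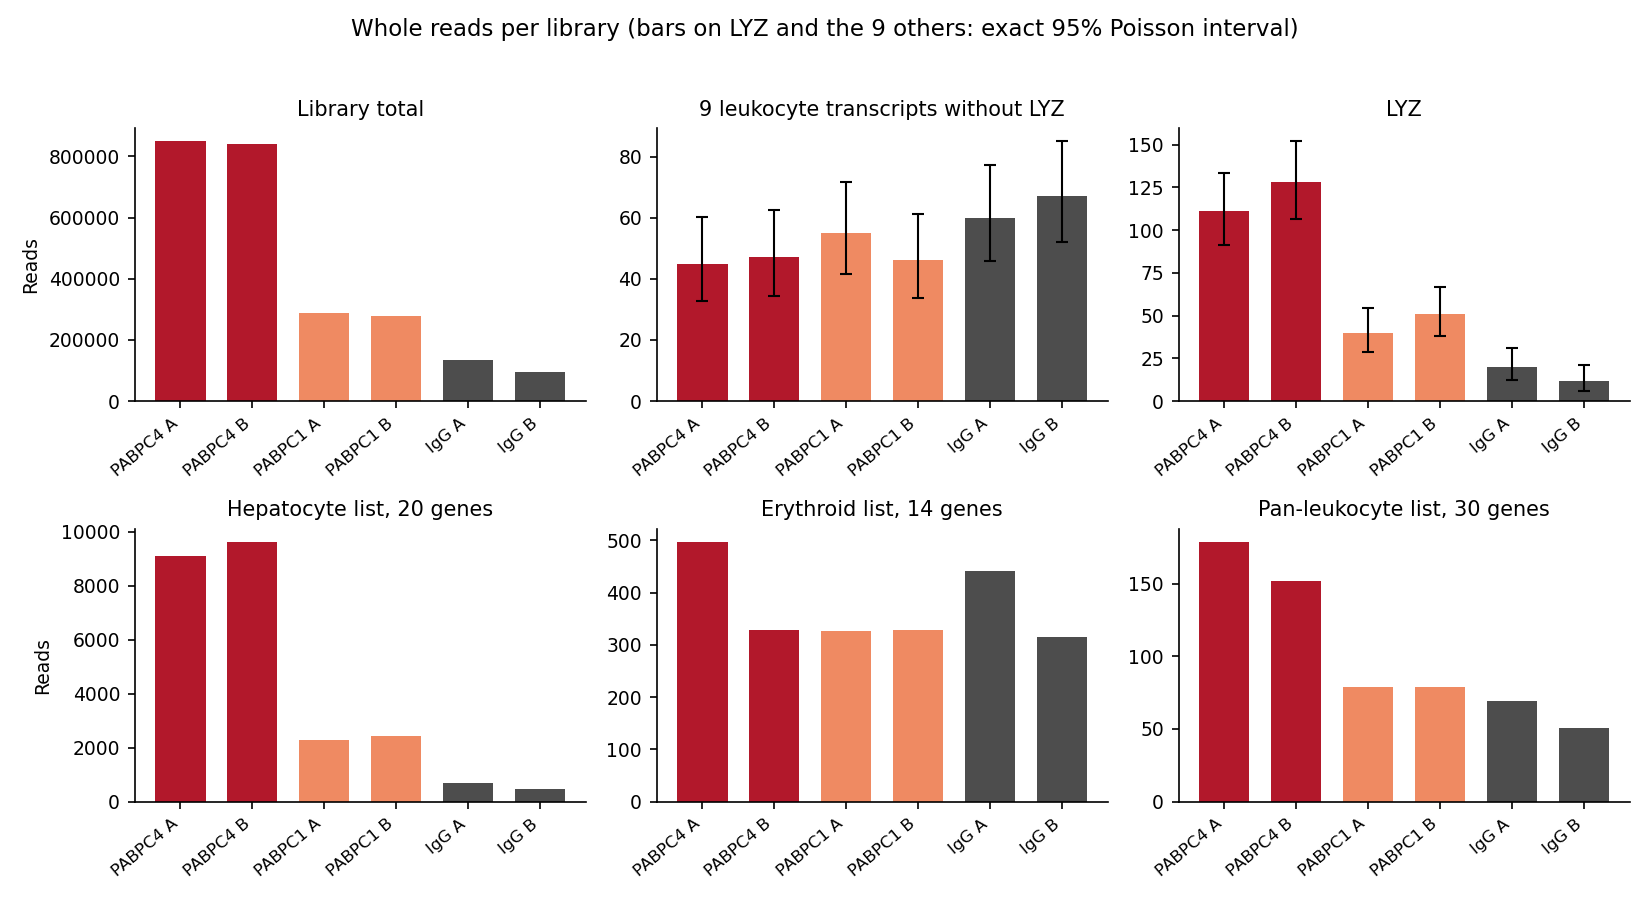
Whole reads (vertical axes) in each of the 6 libraries (PABPC4 A and B, PABPC1 A and B, IgG A and B), for the library total, the 9 leukocyte transcripts without LYZ, LYZ, and the hepatocyte, erythroid and pan-leukocyte marker lists. Error bars on the 9 transcripts and on LYZ are exact 95% Poisson intervals; the 9 transcripts stay between 45 and 67 reads while LYZ and the hepatocyte list are highest in the deep PABPC4 libraries.

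LYZ followed the depth of the library. It had 111 and 128 reads in the PABPC4 libraries, 40 and 51 in the PABPC1 libraries, and 20 and 12 in the IgG libraries. In CPM this was 131 and 152 in PABPC4, 138 and 184 in PABPC1, and 150 and 127 in IgG, so that the 3 antibodies overlapped. The means were 141 ± 15.3 in PABPC4, 161 ± 32.1 in PABPC1 and 139 ± 16.3 in IgG (SD, n = 2 each). In the authors' deposited table LYZ had a fold of 1.02 for PABPC4 over IgG (exact 95% counting interval 0.692 to 1.5) and an adjusted p of 1. For PABPC1 over IgG the authors' deposited table gave a fold of 1.16 (0.755 to 1.76), again with an adjusted p of 1. Here and below, the counting intervals are those of the ratio of summed reads scaled to the totals. The deposited fold is a ratio of library means, so it need not lie at the middle of its interval. The median fold over the 5487 genes with at least 4 IgG reads was 1.65 for PABPC4 and 1.21 for PABPC1, so LYZ lay below the median gene in both. When the totals were taken without mitochondrial reads, the fold of LYZ was 0.515 for PABPC4 over IgG and 0.814 for PABPC1 over IgG, and with median-of-ratios scaling 0.575 and 0.886.

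The 3 genes below were most like LYZ across the 6 libraries, by the Pearson correlation of log2(CPM + 1), among 9540 genes with at least 20 reads. They are PTK7, a receptor-like protein of planar cell polarity, at 0.926, AK3, a mitochondrial adenylate kinase, at 0.920, and JDP2, a leucine zipper factor, at 0.907. PTK7 had 24 and 36 reads in PABPC4, 8 and 15 in PABPC1, and 4 and 2 in IgG, so it too was read most where the library was deepest. With only 6 libraries of 3 depths, these correlations are a description.

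**Figure D2:**
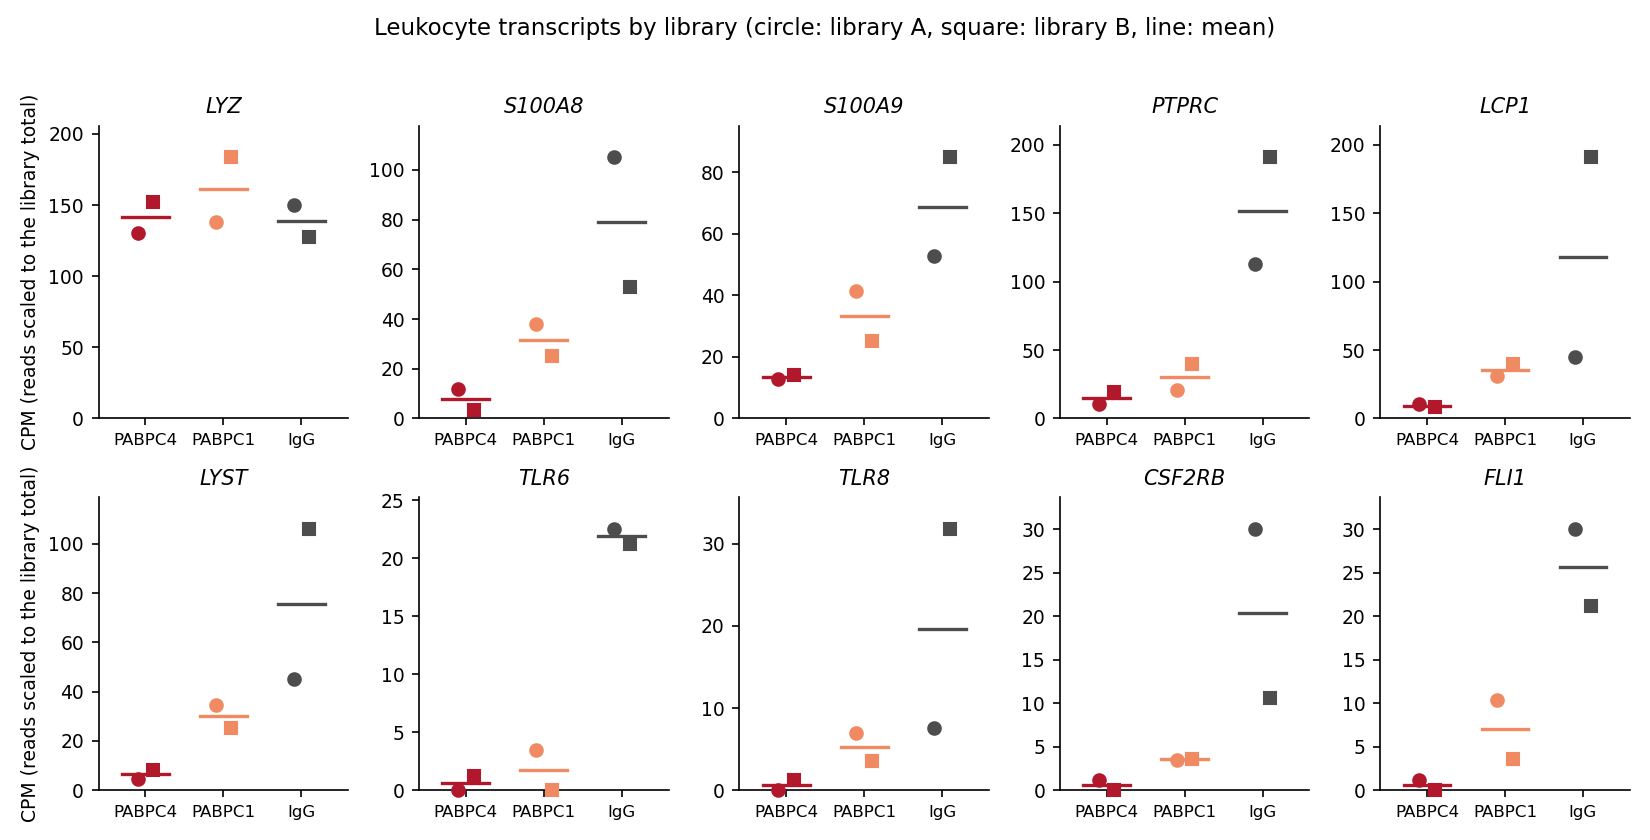
CPM (vertical axes, each from 0) of the 10 leukocyte transcripts in the PABPC4, PABPC1 and IgG libraries; circles are library A, squares library B and lines the mean of both. LYZ overlaps between the 3 antibodies at 127 to 184 CPM, and in the other 9 both IgG libraries lie above all 4 RIP libraries.

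In the 9 other transcripts, both IgG libraries were above both PABPC4 libraries and above both PABPC1 libraries in CPM. Among all 5487 genes with at least 4 IgG reads, 8.27% had both IgG libraries above both PABPC4 libraries and 13% had them above both PABPC1 libraries. Because the transcripts were chosen for being highest in IgG, nothing is read from these counts. In 8 of 10 (S100A8, PTPRC, LCP1, LYST, TLR6, TLR8, CSF2RB and FLI1) the summed PABPC4 reads were not above the IgG reads, against 1.93% of those genes. In 7 of 10 (the same without LYST) the summed PABPC1 reads were not above the IgG reads, against 6.69%.

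S100A8 had 10 and 3 reads in the PABPC4 libraries, 11 and 7 in the PABPC1 libraries, and 14 and 5 in the IgG libraries. The raw counts of the 3 antibodies overlapped, and only scaling to depth set them apart, at 11.8 and 3.57, 38.0 and 25.2, and 105 and 53.1 CPM for PABPC4, PABPC1 and IgG. In the authors' deposited table the fold of S100A8 was 0.0968 for PABPC4 over IgG (exact 95% counting interval 0.0417 to 0.196, adjusted p = 1.73e-13). Its fold for PABPC1 over IgG in the authors' deposited table was 0.400 (0.188 to 0.765) with an adjusted p of 0.169. Its partner chain S100A9 had 11 and 12 reads in PABPC4, 12 and 7 in PABPC1, and 7 and 8 in IgG. S100A9 was the only one of the 9 with more summed reads in both RIPs (23 and 19) than in IgG (15). Its levels were 12.9 and 14.3 CPM in PABPC4, 41.5 and 25.2 in PABPC1, and 52.6 and 84.9 in IgG, which did not overlap. The authors' deposited table listed a fold of 0.198 for PABPC4 over IgG (0.103 to 0.425, adjusted p = 2.61e-05) and of 0.485 for PABPC1 over IgG (0.245 to 1.07, adjusted p = 0.862). Both calprotectin chains thus stood in the same order in the antibodies, with PABPC4 lowest and IgG highest.

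PTPRC, the CD45 gene, had 9 and 16 reads in the PABPC4 libraries, 6 and 11 in the PABPC1 libraries, and 15 and 18 in the IgG libraries. It was the highest of the 10 in summed IgG reads, with 33. Scaled to depth it averaged 14.8 ± 5.96 CPM in PABPC4, 30.2 ± 13.4 in PABPC1 and 152 ± 55.3 in IgG (SD, n = 2 each), with both IgG libraries above the rest. The authors' deposited table gave PTPRC a fold of 0.0974 for PABPC4 over IgG (exact 95% counting interval 0.0580 to 0.176, adjusted p = 1.01e-22), and a fold of 0.199 for PABPC1 over IgG (0.108 to 0.382, adjusted p = 4.81e-06). These were the smallest adjusted p-values of the 10 genes in both comparisons.

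LCP1, the plastin of white blood cells, had 9 and 7 reads in PABPC4, 9 and 11 in PABPC1, and 6 and 18 in IgG. Its IgG reads were unevenly split: 25.0% of them lay in IgG library A (exact 95% interval 9.77% to 46.7%), which held 58.5% of all IgG reads. In the other 9 transcripts the split between the libraries of each antibody had an interval that held the share of the total. The authors' deposited table listed LCP1 at a fold of 0.0801 for PABPC4 over IgG (0.0445 to 0.176, adjusted p = 1.21e-17) and at 0.300 for PABPC1 over IgG (0.175 to 0.631, adjusted p = 0.0238). Without IgG library B its ratio for PABPC1 over IgG was 0.784. LYST, the lysosomal trafficking regulator, had 4 and 7 reads in PABPC4, 10 and 7 in PABPC1, and 6 and 10 in IgG. Its counts overlapped between PABPC1 and IgG, and its PABPC4 counts lay at the low end. In the authors' deposited table LYST had a fold of 0.0860 for PABPC4 over IgG (0.0388 to 0.212, adjusted p = 3.49e-11) and of 0.395 for PABPC1 over IgG (0.202 to 0.901, adjusted p = 0.449).

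The receptors and FLI1 rested on single reads. TLR6 had 0 and 1 reads in the PABPC4 libraries, 1 and 0 in the PABPC1 libraries, and 3 and 2 in the IgG libraries. TLR8 had 0 and 1 in PABPC4, 2 and 1 in PABPC1, and 1 and 3 in IgG. In TLR8 the antibodies were closest, with PABPC1 library A at 6.92 and IgG library A at 7.52 CPM. CSF2RB had 1 and 0 reads in PABPC4, 1 and 1 in PABPC1, and 4 and 1 in IgG. FLI1, the ETS factor, had 1 and 0 reads in PABPC4, 3 and 1 in PABPC1, and 4 and 2 in IgG. Each of the 4 thus had 1 read in all in the PABPC4 RIP, the deepest pair, and 4 to 6 reads in IgG, the shallowest. Their folds for PABPC4 over IgG in the authors' deposited table were 0.0271 for TLR6 (exact 95% counting interval 0.000568 to 0.240, adjusted p = 7.55e-05), 0.0302 for TLR8 (0.000682 to 0.339, adjusted p = 0.00170), 0.0289 for CSF2RB (0.000568 to 0.240, adjusted p = 7.55e-05) and 0.0229 for FLI1 (0.000487 to 0.185, adjusted p = 3.03e-06). For PABPC1 over IgG the authors' deposited table listed 0.0789 for TLR6, 0.267 for TLR8, 0.173 for CSF2RB and 0.272 for FLI1, with adjusted p-values of 0.337, 1, 0.624 and 0.827. The intervals of TLR8 (0.0441 to 1.78) and FLI1 (0.0555 to 1.13) for PABPC1 over IgG held a ratio of 1. At such counts, Fisher's exact test gave larger adjusted p-values for PABPC4 over IgG than those deposited. They were 0.0027 for TLR6, 0.0144 for TLR8, 0.0027 for CSF2RB and 0.000482 for FLI1.

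**Figure D3:**
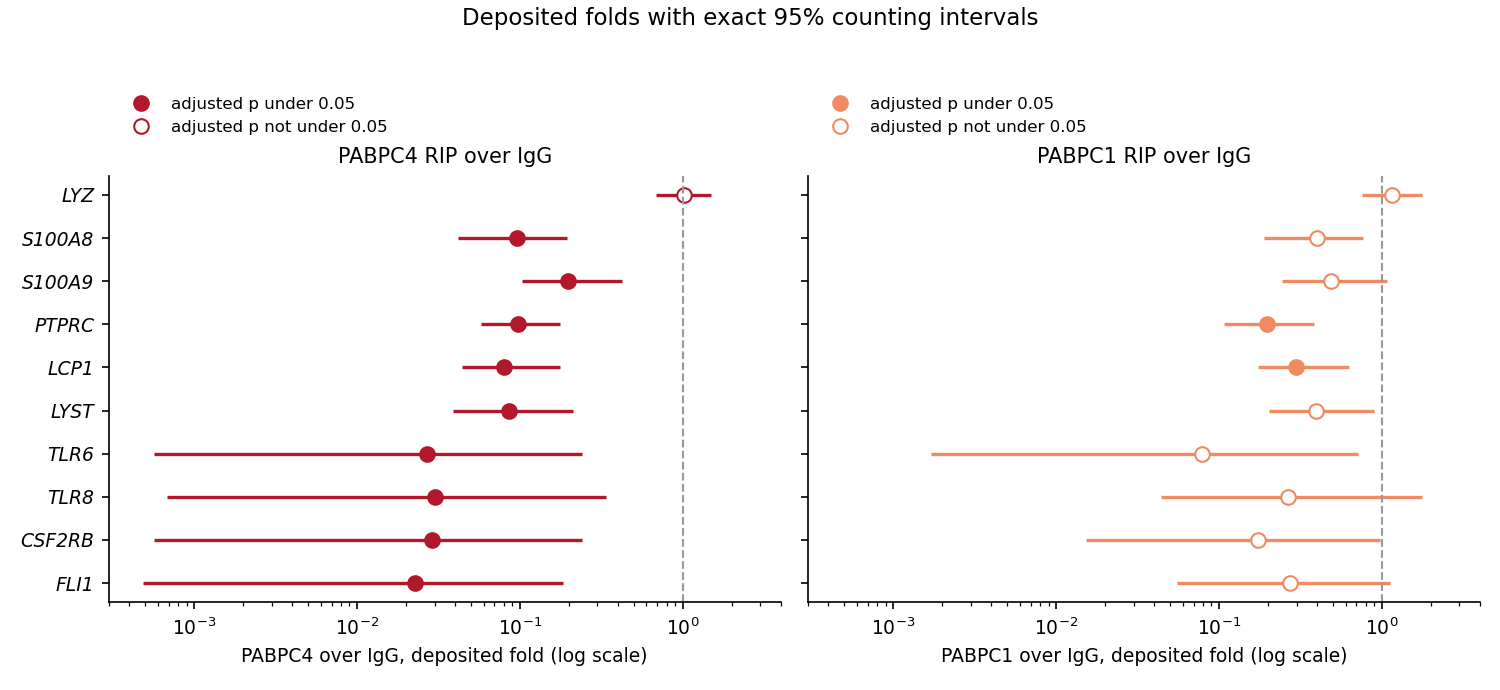
Deposited folds over IgG (horizontal axes, log scale) of the 10 leukocyte transcripts for PABPC4 (left) and PABPC1 (right). Lines are exact 95% counting intervals of the ratio of summed reads, and filled points have a deposited adjusted p under 0.05. The PABPC4 folds of all but LYZ lie between 0.0229 and 0.198, and in PABPC1 only PTPRC and LCP1 are filled.

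By the calls of the authors' deposited table at an adjusted p under 0.05, 9 of the 10 genes, all but LYZ, were lower in PABPC4 than in IgG, and 0.9% of 21455 genes with a p were. In the PABPC1 comparison the authors' deposited table called 2 of the 10 lower, PTPRC and LCP1, against 0.194% of 17565 genes. None of the 10 was called higher in either, and LYZ, the one with folds over 1, had adjusted p-values of 1 by Fisher's exact test as well. Fisher's exact test called 9 of the 10 lower in PABPC4, against 0.739% of 20980 genes, and 2 of the 10 lower in PABPC1, against 0.187% of 17090 genes. For comparison, the authors' deposited table called 5.54% of genes higher in PABPC4 and 1.34% higher in PABPC1. The choice of genes used these contrasts, and both share the IgG libraries, so the counts describe the selection. The deposited p is a chi-square test on summed reads, which covers counting error and leaves out the spread between libraries. With totals free of mitochondrial reads the whole-table calls turned to 397 lower and 105 higher for PABPC4, where the deposited calls were 193 lower and 1188 higher, and LYZ was then called lower too (adjusted p = 0.0180). For PABPC1 they turned to 75 lower and 24 higher, where the deposited calls were 34 lower and 235 higher, and S100A8 was then also called lower (ratio 0.284, adjusted p = 0.0110). Median-of-ratios scaling gave 352 lower and 163 higher for PABPC4, and 50 lower and 36 higher for PABPC1.

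Single libraries decided some of these calls when the same chi-square test was run on the recovered reads. Without PABPC1 library A, without PABPC1 library B or without IgG library B, LCP1 lost its call in the PABPC1 comparison and PTPRC remained as the only one of the 10. In the PABPC4 comparison TLR8 lost its call without PABPC4 library A, CSF2RB without IgG library A, and S100A9 and TLR8 without IgG library B.

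**Figure D4:**
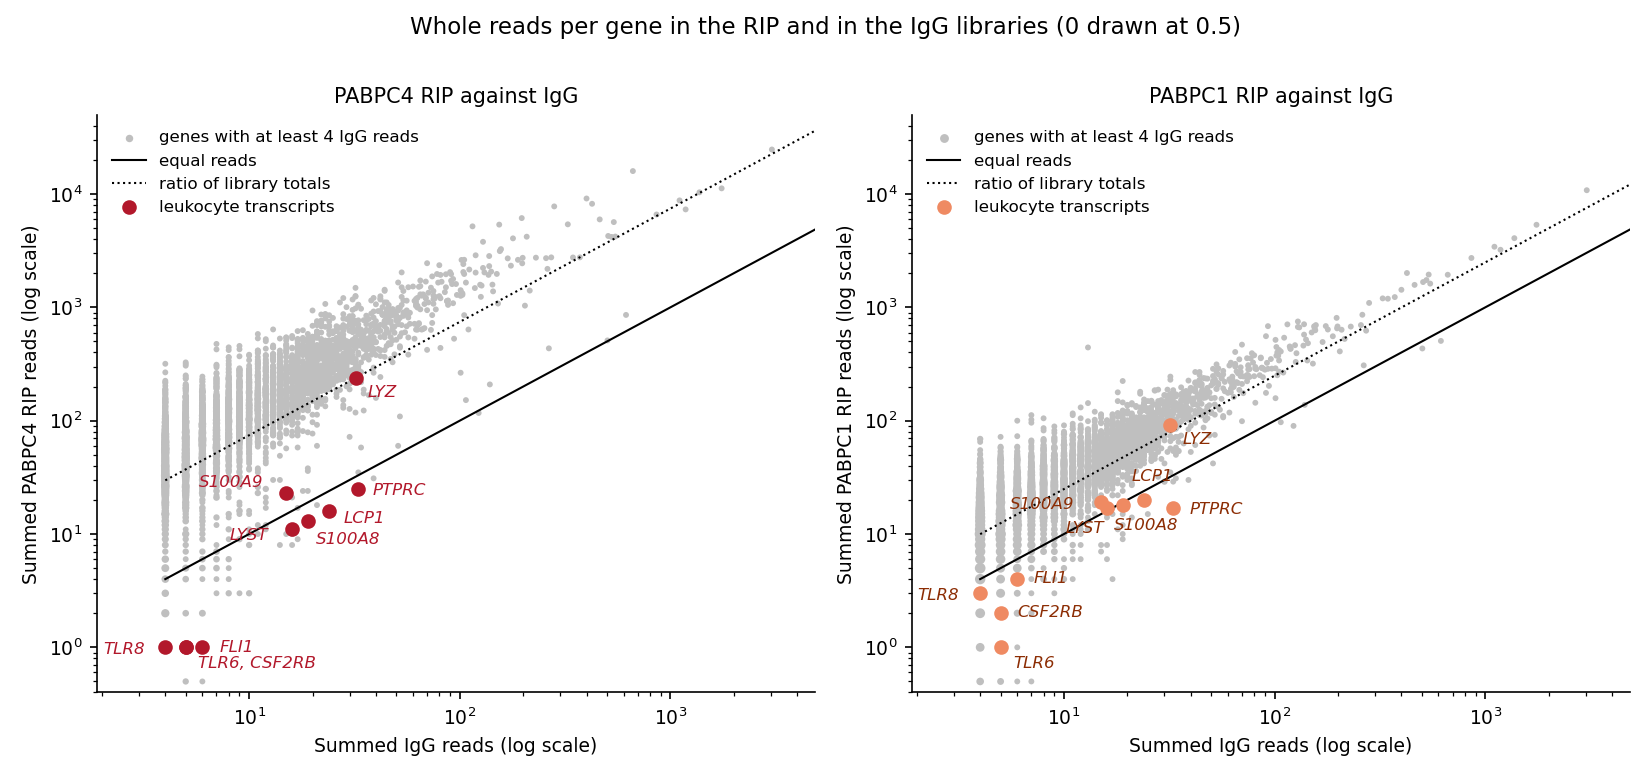
Summed whole reads per gene in the PABPC4 RIP (left) and the PABPC1 RIP (right) on the vertical axes against summed IgG reads on the horizontal axes, all on log scales, for genes with at least 4 IgG reads (grey, larger where genes coincide) and the 10 leukocyte transcripts (coloured and named). The solid line marks equal reads and the dotted line the ratio of the library totals (7.44 for PABPC4, 2.49 for PABPC1); LYZ lies near the dotted line and the other 9 near or below the solid line.

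Levels of different genes were compared per length, as CPM per kilobase (RPKM) over both libraries of an antibody. LYZ was the highest of the 10 in PABPC4, at 80.1 RPKM, and in PABPC1, at 91.3. In IgG it was second, at 78.7 RPKM, below S100A9 at 119 and level with S100A8, which also had 78.7. S100A9 followed LYZ in PABPC4 and PABPC1 at 23.6 and 57.8 RPKM, and S100A8 came after it at 7.62 and 31.4. LCP1 and PTPRC came next in each antibody, LCP1 at 1.87 RPKM in PABPC4, 6.99 in PABPC1 and 23.3 in IgG, and PTPRC at 1.77, 3.61 and 18.1. The libraries of LCP1 and PTPRC overlapped in PABPC4 and in IgG, and in PABPC1 both LCP1 libraries (6.15 and 7.83 RPKM) were above both PTPRC libraries (2.48 and 4.73). LYZ and S100A8 overlapped in IgG, where S100A9 had 91.2 and 147 RPKM and lay above both LYZ libraries. LYST, spread over the longest of the 10, had 0.332, 1.52 and 3.85 RPKM, and TLR6, TLR8, CSF2RB and FLI1 had 0.0720 to 0.137 RPKM in PABPC4, 0.286 to 1.21 in PABPC1 and 3.14 to 4.52 in IgG. The order LYZ, S100A9, S100A8, LCP1, PTPRC, LYST and TLR8 was the same in PABPC4 and PABPC1, and IgG differed from it in placing S100A9 above LYZ and TLR8 and CSF2RB above LYST. From LYST downwards, neighbours in the order overlapped between their libraries in PABPC4 and in IgG.

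PABPC4 was then compared with PABPC1 directly, a contrast that did not choose the genes, although the choice used the same libraries against IgG. Each antibody was used on cells overexpressing its own target, so antibody and cell population cannot be told apart in this contrast. In CPM, 8 of the 10 had both PABPC4 libraries below both PABPC1 libraries, and LYZ and TLR6 overlapped. Of the 5487 genes with at least 4 IgG reads, 7.55% had both PABPC4 libraries below both PABPC1 libraries. The test was limma voom on the recovered reads of 7982 genes (10 or more reads in 2 or more libraries), with Benjamini-Hochberg adjustment over all of them. It called 2.05% of the genes lower and 2.43% higher in PABPC4. Of the 10 transcripts, 6 passed the read filter, LYST and LCP1 only through their IgG reads, the group in which they are high, so no count over the 6 is read. None of the 6 was higher in PABPC4, at an unadjusted p under 0.05 or by Fisher's exact test either. LYST fell by 2.63 on the log2 scale in PABPC4 relative to PABPC1 (SE 0.54, limma adjusted p = 0.00189), S100A8 fell by 2.63 (SE 0.56, limma adjusted p = 0.00236), LCP1 fell by 2.33 (SE 0.51, limma adjusted p = 0.00346) and S100A9 fell by 1.70 (SE 0.44, limma adjusted p = 0.0151). PTPRC had a log2 ratio of -1.49 (SE 0.46, limma adjusted p = 0.0543) and LYZ one of -0.63 (SE 0.20, limma adjusted p = 0.0571), which missed the threshold.

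On the 4 RIP libraries alone, 4 transcripts could be tested and all 4 were lower in PABPC4, against 2.45% of 7975 genes: S100A8 (-2.56), S100A9 (-1.64), PTPRC (-1.43) and LYZ (-0.57, limma adjusted p = 0.0435). With all 3 antibodies, 0 of 5 were called without PABPC1 library A and 0 of 5 without PABPC1 library B, where all genes together gave 5 and 10 lower calls. The log2 ratios there were -2.29 and -2.98 for S100A8 and -1.31 and -2.11 for S100A9, while LCP1 stood at -2.43 without library A and LYST at -2.91 without library B. Fisher's exact test on the summed PABPC4 and PABPC1 reads called 5 of 10 lower, against 0.953% of 22133 genes. In the fits without a PABPC1 library the 1 remaining PABPC1 library was assumed to vary like the other groups. With library totals in place of median-of-ratios scaling, which moved the median of all genes by 0.45 on the log2 scale, the whole table gave 53 lower and 1111 higher calls against 164 lower and 194 higher. S100A8, S100A9, LYST and LCP1 stayed lower under library totals, and LYZ stood at -0.18 (limma adjusted p = 0.584).

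Other genes of white blood cells, from lists of 105 genes in all, are background for these values. Of 90 with a p in the authors' deposited table, 24 (26.7%) were lower in PABPC4 than in IgG and 0 higher, and for PABPC1 the authors' deposited table called 2 of 86 lower (2.33%) and 0 higher. By list, the authors' deposited table called lower in PABPC4 8 of 29 pan-leukocyte genes, 13 of 34 neutrophil and monocyte genes and 3 of 27 lymphocyte genes. SRGN, the granule proteoglycan serglycin, had 7 summed reads in each of PABPC4, PABPC1 and IgG, and CYTIP, a regulator of lymphocyte adhesion, had 6 in each. HCLS1, a cortactin relative of blood cells, had 7, 6 and 7. These genes are named for their small deposited p-values, so their even reads follow from that choice. Others of the same list had more reads in the deeper libraries, such as LAPTM5, a lysosomal membrane protein of blood cells, with 68, 31 and 9, and CD37, a tetraspanin of leukocytes, with 30, 4 and 1, both singled out after their values were seen. MNDA, a nuclear antigen of myeloid cells, had 35, 29 and 33 reads, FCGR3B, a neutrophil Fc receptor, 11, 14 and 12, FCN1, the ficolin of monocytes, 8, 9 and 10, and CSF3R, the G-CSF receptor, 72, 29 and 30, in PABPC4, PABPC1 and IgG. MNDA and CSF3R were the 2 genes that the authors' deposited table called lower in PABPC1. Of the lymphocyte list IL7R had 4, 5 and 5 reads, GNLY 1, 5 and 3, and THEMIS 1, 0 and 3.

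Scaled to depth, the pan-leukocyte, neutrophil and monocyte, and lymphocyte lists stood in the same order, lowest in PABPC4 and highest in IgG. Genes within the lists differed. Summed reads of the pan-leukocyte list were 331 in PABPC4, 158 in PABPC1 and 121 in IgG, those of the neutrophil and monocyte list 593, 256 and 210, and those of the lymphocyte list 121, 55 and 40. VCAN, a matrix proteoglycan that monocytes also make, held 349, 91 and 32 of the neutrophil and monocyte reads and was singled out after its values were seen. It followed depth as LYZ did. Across libraries the pan-leukocyte list summed to 181 to 211 CPM in PABPC4, 273 to 285 in PABPC1 and 519 to 541 in IgG. Of the granule genes in the neutrophil and monocyte list, MPO, the myeloperoxidase gene, had 2 reads, both in PABPC4 library A, and ELANE, AZU1, PRTN3, CTSG, CAMP and LTF, had 0 reads in every library, where a count of 0 over a group allows up to 3 reads. The part of other cells in these values was not tested.

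Markers of other cell types moved with the 9 transcripts in part. The erythroid list had 498 and 328 reads in PABPC4, 326 and 329 in PABPC1, and 441 and 316 in IgG, again not following depth. HBB, the beta chain of adult haemoglobin, had 511, 434 and 503 summed reads in PABPC4, PABPC1 and IgG, the alpha chain genes HBA2 117, 90 and 123 and HBA1 152, 97 and 107 (near-identical copies, whose reads counting may have split), and ALAS2, the heme synthesis enzyme of red cells, 11, 4 and 10. The authors' deposited table called 4 of 12 erythroid genes lower in PABPC4 and 3 of 10 lower in PABPC1. Platelet genes were lower in 2 of 7 in PABPC4 in the authors' deposited table (TUBB1 with 9, 8 and 8 reads, NRGN with 16, 12 and 9) and in 0 of 8 in PABPC1. Of 10 fibroblast genes, 3 were lower and 0 higher in PABPC4 in the authors' deposited table, and in PABPC1 2 of 9 were lower and 1 higher. COL6A2 had 9, 4 and 17 reads, COL1A1 8, 6 and 16 and COL1A2 11, 13 and 8, while COL6A3, at 48, 65 and 4 reads, was the one called higher in PABPC1. PECAM1, an adhesion protein of endothelium, platelets and leukocytes, was the one of 5 endothelial genes called lower in PABPC4 in the authors' deposited table, with 26, 12 and 11 reads, and 0 of 3 were called in PABPC1.

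Markers of keratinocytes and of secretory glands had few reads. Of 10 keratinocyte genes KRT10 alone had reads, 27 in PABPC4, 9 in PABPC1 and 0 in IgG, and of 14 secretory genes 4 had reads, which summed to 26, 4 and 4. The authors' deposited table called none of either list in either comparison. Hepatocyte genes went the other way from the 9 transcripts: the authors' deposited table called 11 of 20 higher in PABPC4 and 2 of 20 higher in PABPC1, and 0 lower. ALB, serum albumin, had 2314, 710 and 138 reads in PABPC4, PABPC1 and IgG, APOB 8208, 2011 and 425, SERPINA1 1936, 460 and 137, and FGA 846, 176 and 46. Of 12 broadly expressed genes, B2M was the one called lower in PABPC4 in the authors' deposited table (109, 75 and 52 reads), and 0 were called lower in PABPC1. B2M is the light chain of class I histocompatibility molecules.

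Relatives of the 10 genes with reads differed among themselves. Of 10 Toll-like receptors, 5 had reads, and in the authors' deposited table only TLR6 and TLR8 were called lower in PABPC4, and 0 in PABPC1. TLR1 had 5, 4 and 1 reads in PABPC4, PABPC1 and IgG and TLR2, the partner of TLR6, 4, 6 and 2. TLR3, TLR5, TLR7, TLR9 and TLR10 had 0 reads. Of the signalling genes downstream of these receptors, the authors' deposited table called 1 of 16 lower in PABPC4, IRAK3, an inhibitory kinase of myeloid cells, with 2, 0 and 4 reads, and 0 of 15 in PABPC1. Over the 9 of these signalling genes with at least 4 IgG reads, the median fold was 1.48 in PABPC4 and 1.05 in PABPC1. Over all genes with at least 4 IgG reads it was 1.65 and 1.21. In the list of the GM-CSF, IL-3 and IL-5 receptor, CSF2RB was the one of 6 genes called lower in PABPC4 in the authors' deposited table, and 0 of 7 were called in PABPC1. JAK2, the kinase bound to CSF2RB, had 22, 4 and 4 reads, and STAT5B, its downstream factor, had 99, 22 and 9.

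In the S100 family 3 of 14 genes were lower in PABPC4 and 0 in PABPC1 in the authors' deposited table: S100A8, S100A9 and S100A4, a protein of motile and immune cells, with 2, 4 and 4 reads. S100A6 had 14, 10 and 7 reads and S100A11 18, 8 and 5, with deposited folds of 0.267 and 0.454 for PABPC4 over IgG that did not pass in the authors' deposited table. S100A10 had 34, 6 and 2 reads, S100A16 48, 16 and 4, S100P 44, 9 and 4 and S100PBP 90, 25 and 12, all with PABPC4 far above IgG in reads. Among ETS factors, the authors' deposited table called FLI1 and SPI1, the myeloid factor PU.1 with 5, 8 and 5 reads, lower in PABPC4, 2 of 18 genes, and 0 in PABPC1. The other ETS factors with at least 10 reads, among them ETS2 with 222, 60 and 20, ETV4 with 181, 59 and 14 and ELK3 with 178, 54 and 19, had more reads in PABPC4 than in IgG.

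Of the plastins and the relatives of LYST, the authors' deposited table called LCP1 and LYST lower and NBEAL1, a BEACH domain protein like LYST, higher in PABPC4, out of 11. In PABPC1 it was LCP1 alone in the authors' deposited table. The plastins PLS1, of intestinal epithelium, and PLS3, of solid tissues, had 34, 8 and 2 reads and 33, 10 and 4 reads in PABPC4, PABPC1 and IgG. Relative to LCP1, with 16, 20 and 24 reads, both were read most in the deep PABPC4 libraries. NBEAL1 had 74, 22 and 0 reads, LRBA 133, 24 and 7, NBEA 62, 15 and 6, WDFY3 59, 18 and 3, NSMAF 21, 10 and 3 and NBEAL2 11, 8 and 2. LYST, at 11, 17 and 16, was thus the one BEACH domain gene among those named with fewer reads in PABPC4 than in IgG.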

How the data were processed

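RIP-seq was measured in 6 HepG2 libraries. The authors deposited 2 tables with 58302 genes each. Per the file headers, they hold a linear ratio (fold) of RIP over IgG, a p-value and a Benjamini-Hochberg adjusted p-value; 0 columns held values of single libraries. STAR 2.7.10a, Bowtie2 2.4.1 and featureCounts 2.0.1 are listed, with builds GRCh38 (hg38), in the submitters' processing notes. The sources used here do not give the role of each tool, or whether counting used strand.

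The deposited p-value is that of Yates-corrected chi-square on reads summed over libraries. The deposited fold is the RIP mean in RPKM divided by the IgG mean plus 0.005 RPKM. Whole reads were solved from both in Python 3.11.15 (scipy 1.17.1). Of 22607 genes with a read, 22598 gave summed reads and 22132 gave reads per library, including all 10 described. Each gene length implied was a whole number of nucleotides within 0.001, and with the IgG totals moved by 1 read it was so in 0 of 11745 genes. In 10118 of 10118 genes solved in each table alone, both gave the same IgG reads. In simulation 18682 of 20235 genes came back, and 18682 were right.

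The calls against IgG are the authors' at an adjusted p under 0.05. The planned count model was replaced, since no file holds counts: PABPC4 over PABPC1 was fitted with limma 3.58.1 (voom, R 4.3.3) on recovered reads, with 3 groups, median-of-ratios scaling, 3 residual and 32.7 prior degrees of freedom. On simulated PABPC4 over PABPC1 data it called 100 of 100 genes raised 4-fold, 76 of 79 lowered 4-fold and 3 of 7456 unchanged genes. Changed genes were drawn above a minimum of expected reads, and the same spread between libraries was set for all genes. Lowered genes that failed the read filter are left out of the 79. These rates may therefore not hold for genes with few reads. Ratios of summed reads carry exact conditional intervals, which are also those printed beside the deposited folds. Shares carry exact (Clopper-Pearson) intervals, all at 95%. The 10 genes, the 17 marker lists and the tests were chosen with earlier results of these data known. Beyond the 10, genes named are at most 4 per list with the smallest deposited adjusted p under 0.05, relatives of a family with at least 10 summed reads, and the 3 genes most like LYZ, apart from some that are not reported here. Alternatives were other totals and scalings, other read minimums, Fisher's exact test and leaving out each library.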

Additional observations from a re-analysis of the deposited data

Results flagged for a closer look

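S100A8 and S100A9 were lower in PABPC4 than in PABPC1 by the direct test of that difference (limma, adjusted over 7982 genes). LYST and LCP1 were called lower as well. Both passed the read filter only through their IgG reads, the group in which they are high, so no count of calls is read. The log2 ratio of PABPC4 over PABPC1 was -2.63 for S100A8 (10 and 3 reads in PABPC4, against 11 and 7 in PABPC1). It was -2.63 for LYST (4 and 7 reads in PABPC4, against 10 and 7 in PABPC1), -2.33 for LCP1 (9 and 7 reads in PABPC4, against 9 and 11 in PABPC1) and -1.70 for S100A9 (11 and 12 reads in PABPC4, against 12 and 7 in PABPC1). The PABPC4 totals were 2.98 times those of PABPC1. The antibodies were used on different overexpressing populations, so antibody and population cannot be told apart here. In S100A8, LYST, LCP1 and S100A9 both PABPC4 libraries were below both PABPC1 libraries in CPM. No call remained without PABPC1 library A or without PABPC1 library B, where S100A8 stood at -2.29 and -2.98, S100A9 at -1.31 and -2.11, LCP1 at -2.43 without A and LYST at -2.91 without B.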

How the results depend on the processing

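No paired analysis was possible because the recovered libraries carry no replicate numbers. Leaving out 1 library at a time, the genes called lower numbered 7 to 9 for PABPC4 over IgG, 1 to 2 for PABPC1 over IgG and 0 to 6 for PABPC4 over PABPC1. Calls over all genes moved under the same settings too, as given below, so nothing is read from these counts alone. With at least 10 summed reads, 6 of the 10 remained for PABPC4 over IgG and 5 were lower, against 1.08% of 11095 genes. With at least 1 read in any library, 7 of 10 were lower for PABPC4 over PABPC1, where 1618 of all 22132 genes were lower. Fisher's exact test gave 9, 2 and 5, against 0.739%, 0.187% and 0.953% of all genes; its use on PABPC4 over PABPC1 was added after seeing the data.

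LYZ turned to a ratio under 1 for PABPC4 over IgG with totals free of mitochondrial genes (0.515), median-of-ratios scaling (0.575), without PABPC4 library B (0.940) and without IgG library B (0.940), and for PABPC1 over IgG with totals free of mitochondrial genes (0.814), median-of-ratios scaling (0.886) and without PABPC1 library B (0.996). The cause was not tested. The 10 genes were 0.0251% (PABPC4), 0.0607% (PABPC1) and 0.178% (IgG) of nuclear reads, and without LYZ 0.00544%, 0.0178% and 0.0559% of all reads.

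Calls over all genes moved by more than 1.5 times as well. Leaving out 1 library gave 113 to 132 lower and 367 to 1184 higher for PABPC4 over IgG, against 193 and 1188, and 14 to 24 lower and 48 to 252 higher for PABPC1 over IgG, against 34 and 235. For PABPC4 over PABPC1 it gave 5 to 296 lower and 1 to 358 higher, against 164 and 194; 1 read in any library gave 1618 lower and 190 higher, and the 4 RIP libraries alone 195 and 327. At least 10 summed reads gave 120 lower for PABPC4 over IgG. Depth limits the receptors and FLI1 most, with 4 to 6 IgG reads each.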

Other observations

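In 106 of 5487 genes with at least 4 IgG reads, the PABPC4 libraries gave no more summed reads than the IgG libraries, although they were 7.44 times as deep. They included 8 of the 10 transcripts described above and 18 of 34 other leukocyte genes with at least 4 IgG reads (52.9%, against 1.93% of all 5487), and 80 were in neither group. The 10 were mostly chosen for being highest in IgG. The 34 were kept for their IgG reads, the same reads that the PABPC4 reads are set against. Nothing is therefore read from these shares. The genes named next were singled out after their values were seen, as those with 14 or more IgG reads among the 80. HBA2 had 117 reads in PABPC4, 90 in PABPC1 and 123 in IgG. TMSB4X, an actin-binding peptide abundant in blood cells, had 31, 30 and 39 reads, MSN, the membrane linker moesin, 15, 15 and 25, FYB1, an adaptor of T cells and platelets, 18, 14 and 21, and FP671120.4 13, 10 and 19. COL6A2 and COL1A1, collagen genes of connective tissue, had 9, 4 and 17 and 8, 6 and 16 reads. RGS2, a regulator of G protein signalling, had 10, 7 and 15 reads and VSIR, an immune checkpoint protein of myeloid cells, had 8, 15 and 14. The same set held small nuclear and nucleolar RNA genes, among them RNU2-33P with 17, 17 and 17 reads and SNORD3A with 10, 8 and 16.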
